A study of Mus musculus with 4 samples.

Results

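Splenic dendritic cells (DC) display peptides to T cells together with ligands that either promote or restrain the T cell response. The 10 genes described here encode such ligands and the surface markers of DC maturation: the B7 family ligands Cd80, Cd86, Icosl, Cd274 and Pdcd1lg2, the TNF family ligands Tnfsf8 and Tnfsf9, the receptor gene Cd40, and the surface glycoprotein genes Cd83 and Cd24a. They were chosen by name, as probe sets annotated with 1 of these symbols, and each gene was read from its brightest probe set. All 10 had such a probe set, of 19938 genes named on the array, and all 10 passed the limit on low values, as did 9894 genes in all. The samples were Esam DC from the spleens of 4 mice aged 6 weeks, enriched with magnetic beads, sorted as CD11c+ MHCII+ cells gated on Esam, CD4 and CD8, and measured on 1 array per mouse. The wt mice (n = 2, labelled DCRunx3 +/+) and the cKO mice (n = 2, labelled DCRunx3 -/-) formed 2 littermate pairs. In cKO mice a floxed Runx3 gene was deleted by Cre under the CD11c promoter. Deletion was therefore limited to lineages in which this promoter is or was active. According to the study it starts at the stage of the DC precursor (pre-DC). Whether the wt littermates carried floxed alleles or Cre is not given in the labels. The question for the array experiment was which genes respond to loss of Runx3, a transcription factor of the RUNX family.

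A naive T cell needs a second signal beside its antigen receptor. The B7 ligands Cd80 and Cd86 give it through the receptor Cd28 and are also bound by the inhibitory receptor Ctla4, Icosl engages Icos, and Cd274 (PD-L1) and Pdcd1lg2 (PD-L2) engage the inhibitory receptor Pdcd1. Ligands of the TNF family act later, on activated T cells. Cd40 works the other way round: its ligand on the T cell tells the DC to mature, and the mature DC then displays more of the B7 ligands, Cd40 and Cd83.

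Each value below is a log2 signal after robust multichip averaging (RMA), and each difference is cKO minus wt on that scale. All mice are male according to the labels, whereas the arrays split by litter for sex-linked genes. Xist was at 12.75 or more on both arrays of litter 1 and at 5.19 or less on both arrays of litter 2, and 3 Y-linked genes ran the other way, at most 5.27 and at least 9.53. Each genotype held 1 array of each kind. The Runx3 probe set was at 11.37 and 11.51 on the wt arrays and at 11.47 and 11.45 on the cKO arrays. This is no check of the genotype, because no source used here says if the probe set lies in the deleted exons. The defining genes of the labelled population were present on every array: all 12 of the list were tested, with Itgax (CD11c) between 12.99 and 13.12, Esam between 10.10 and 10.64 and the MHC class II gene H2-Ab1 between 13.68 and 13.73. Of 11 T and NK cell markers with a probe set, 10 lay below 6.5 on all arrays, the limit that the study's methods set for a signal above background. All 6 erythroid markers with a probe set lay below it too. Other markers moved with genotype. The marker lists were chosen with earlier results of these data known, so that their counts are a description only. Of all tested probe sets 0.9% passed the study's thresholds upward in cKO. With 1 probe set per gene, 138 of 9894 did. Those thresholds were passed upward by 9 of 12 tested cDC1 markers, 3 of 5 monocyte and 2 of 12 macrophage markers. They were also passed upward by 1 of 6 plasmacytoid DC, 1 of 7 B cell and 1 of 2 neutrophil markers, and by Itgam (0.75) of the Esam DC list. Among these, Ccr2 of the monocyte list and Fcer2a of the B cell list were below 6.5 on both wt arrays and were tested only because of their cKO values. Of the 9 neutrophil markers 7 lay below 6.5 on all arrays, and the 1 that passed was Csf3r, named after its values were seen. The summed levels (log2 of summed linear signals) did not overlap between wt and cKO for monocyte (12.04 to 12.20 and 12.78 to 13.00), macrophage (13.83 to 14.06 and 14.24 to 14.38), plasmacytoid DC (10.66 to 10.70 and 11.31 to 11.42), neutrophil (10.09 to 10.33 and 10.60 to 10.62) and Esam DC markers (16.11 to 16.12 and 16.18 to 16.19). Among single tested probe sets 40.1% did not overlap. Of the 12 Esam DC markers 8 were higher and 4 lower in cKO by sign. Whether other cells or the Esam DC themselves gave these signals was not tested, nor was the part of such signals in the results below. In bulk samples a change in the number of cells of a type and a change in RNA per cell cannot be told apart.

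Cd80, Cd86, Icosl, Cd274 and Cd40 differed between the genotypes by at most 0.17 on the log2 scale. Larger differences were seen in Cd24a (0.72) and Pdcd1lg2 (0.40), higher in cKO, and in Tnfsf8 (-0.64), lower in cKO. None of the 10 genes passed limma's adjusted threshold, where 0% of all 18889 tested probe sets passed. None passed the study's thresholds of a 1.5-fold difference with an unadjusted p of at most 0.05 either, against 1.41% of all tested probe sets (0.9% higher, 0.514% lower). At an unadjusted p under 0.05 in limma, Tnfsf8 was lower and Cd24a was higher in cKO, 2 of 10 genes, against 9.38% of tested probe sets (4.81% lower, 4.57% higher). In the limma fit with 1 probe set per gene, 1328 of 9894 genes did so. By sign 5 of the 10 genes were higher and 5 lower, and their median difference was 0.06, beside -0.02 over all tested probe sets. In 4 genes the wt and cKO arrays did not overlap (Cd24a, Pdcd1lg2 and Cd86 higher, Tnfsf8 lower), which is 40% of the genes beside 40.1% of tested probe sets (16.4% higher, 23.7% lower). For 5 genes (Cd80, Cd86, Icosl, Cd274 and Cd40) the 95% interval of the difference lay wholly inside 1.5-fold in both directions.

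**Figure D1:**
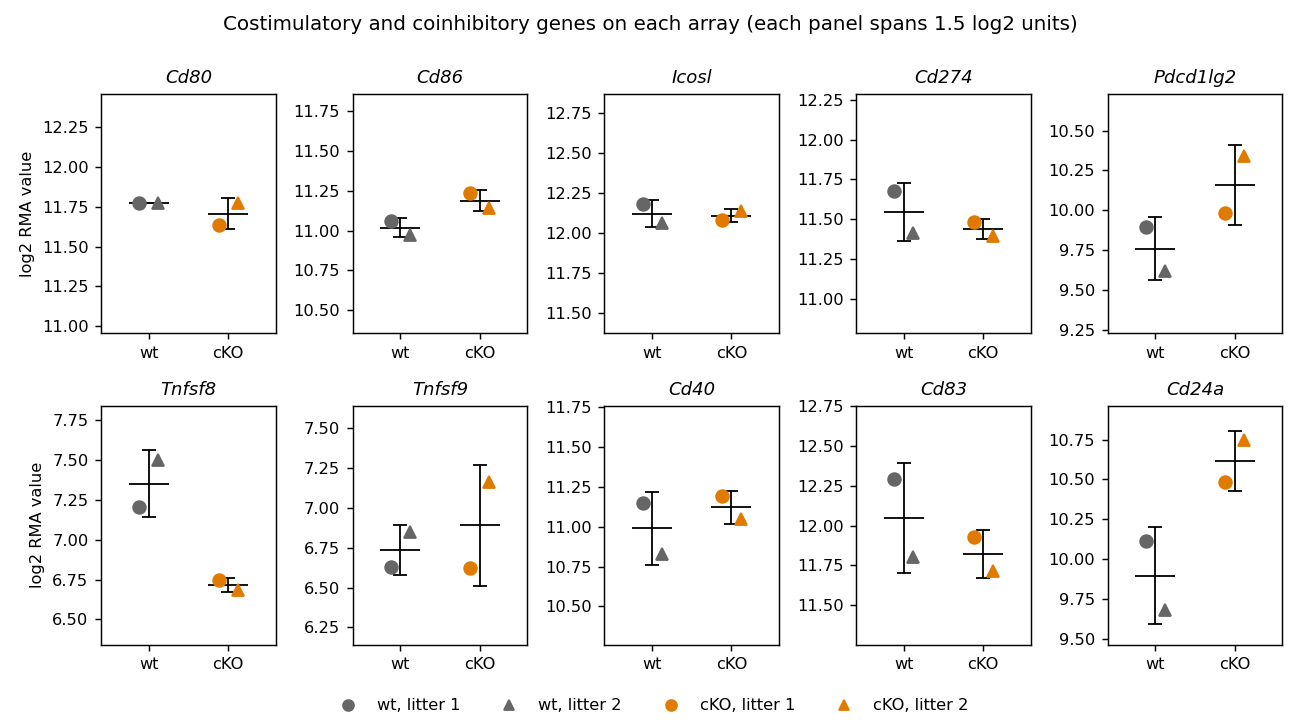
Log2 RMA value (y axis) of each of the 10 genes on the 4 arrays, by genotype (x axis); the litters are told apart by shape (circle 1, triangle 2) and the genotypes by colour (wt grey, cKO orange). The long bar is the mean and the error bar the SD of 2 arrays. Each panel spans 1.5 log2 units. Tnfsf8 lies at 7.21 and 7.50 in wt and at 6.75 and 6.68 in cKO, and Cd80 within 0.14 on all arrays.

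Cd80 and Cd86, the ligands of Cd28 and Ctla4, were well above the limit of 6.5 on every array. Cd80 was at 11.77 on both wt arrays and at 11.64 and 11.78 on the cKO arrays. The groups overlapped, and the difference was -0.07 (95% interval -0.32 to 0.19). A second, dimmer Cd80 probe set gave -0.09 (-0.35 to 0.17). Cd86 was at 11.06 and 10.98 in wt and at 11.24 and 11.14 in cKO. Both cKO arrays lay above both wt arrays, by 0.18 within litter 1 and 0.17 within litter 2. The difference of 0.17 (standard error 0.09, 95% interval -0.08 to 0.42) did not pass (limma, adjusted p = 0.677).

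Icosl, the ligand of Icos, was at 12.18 and 12.06 in wt and at 12.08 and 12.14 in cKO. The arrays of both genotypes overlapped fully, with a difference of -0.01 (95% interval -0.27 to 0.24).

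The genes of the 2 Pdcd1 ligands lie close together in the mouse genome, with 1 annotated gene between them in RefSeq order, and their arrays gave different pictures. Cd274 was at 11.67 and 11.41 in wt and at 11.48 and 11.39 in cKO, so that the wt array of litter 1 stood above the other 3, and the difference was -0.11 (95% interval -0.45 to 0.23). Pdcd1lg2 was at 9.90 and 9.62 in wt and at 9.98 and 10.34 in cKO. Both cKO arrays exceeded both wt arrays, narrowly in litter 1 (0.08) and more widely in litter 2 (0.72). The difference of 0.40 (standard error 0.18, 95% interval -0.08 to 0.88) did not pass (limma, adjusted p = 0.598), and it was 0.22 without cKO replicate 2. Whether the 2 genes differed from each other in their response was not tested.

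The TNF family ligand Tnfsf8 (CD30 ligand) was at 7.21 and 7.50 in wt and at 6.75 and 6.68 in cKO. Both cKO arrays lay below both wt arrays, close to the limit of 6.5. The difference was -0.64 (standard error 0.13, 95% interval -0.996 to -0.28), or 1.56-fold. It reached an unadjusted p of 0.00741 in limma but an adjusted p of 0.325 over all tested probe sets, and 0.0516 in the methods' one-way test, just outside the study's thresholds. The difference was negative in both litters (-0.46 and -0.82) and stayed between -0.49 and -0.78 with any 1 array left out. The value of -0.78 came without wt replicate 1. Tnfsf8 did not pass the study's thresholds with the litter as a block either.

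Tnfsf9, a ligand that supports activated T cells, was near the limit of 6.5, at 6.63 and 6.85 in wt and at 6.62 and 7.16 in cKO. The litter 1 arrays of both genotypes were nearly level and the litter 2 arrays lay above them, and the difference between genotypes was 0.15 (95% interval -0.43 to 0.74).

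The promoters are shown for those genes whose wt and cKO arrays did not overlap and which the RefSeq promoter table (GRCm38.p6) holds. These are Tnfsf8 (chr4:63861235-63861534, minus strand) and Pdcd1lg2 (chr19:29410669-29410968, plus strand). Each is printed from 5′ to 3′, with 250 bases before and 50 bases after the annotated start, and capitals mark the RUNX core motif TGTGGT on either strand.
Tnfsf8: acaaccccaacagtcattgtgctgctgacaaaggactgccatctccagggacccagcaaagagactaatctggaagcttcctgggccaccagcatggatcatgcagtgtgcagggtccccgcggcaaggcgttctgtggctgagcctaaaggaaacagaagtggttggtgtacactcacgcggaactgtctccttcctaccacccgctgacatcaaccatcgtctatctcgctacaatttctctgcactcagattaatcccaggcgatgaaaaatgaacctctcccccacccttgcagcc
Pdcd1lg2: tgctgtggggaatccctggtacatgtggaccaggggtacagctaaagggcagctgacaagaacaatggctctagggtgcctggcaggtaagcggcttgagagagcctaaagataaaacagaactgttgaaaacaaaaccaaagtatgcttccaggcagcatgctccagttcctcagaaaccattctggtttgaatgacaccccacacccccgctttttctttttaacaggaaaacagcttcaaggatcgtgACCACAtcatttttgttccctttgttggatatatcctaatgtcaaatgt
The motif was found once, at base 2 of the annotated Pdcd1lg2 transcript on the opposite strand (ACCACA), and these letters were not in the Tnfsf8 window. Of the 5 genes with a promoter in the table (Cd80, Icosl, Cd274, Pdcd1lg2 and Tnfsf8), 1 held it, and 16.8% of all 32851 promoters did. A match of letters is a description of the sequence only.

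Cd40, through which T cells instruct DC, was at 11.15 and 10.83 in wt and at 11.19 and 11.05 in cKO. The wt array of litter 2 was the lowest and the groups overlapped (difference 0.13, 95% interval -0.27 to 0.53). Cd83, which marks mature DC, was at 12.29 and 11.80 in wt and at 11.93 and 11.72 in cKO. Here the wt array of litter 1 was the highest, and the difference of -0.22 (standard error 0.20) had a 95% interval of -0.77 to 0.32. Leaving out wt replicate 1 gave 0.02 and leaving out wt replicate 2 gave -0.47, and each of these breaks a litter pair. Within the litters the difference was -0.37 (litter 1) and -0.08 (litter 2).

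Cd24a, which encodes a glycosylphosphatidylinositol-anchored glycoprotein that is high on cDC1, B cells and erythroid cells, had the widest difference of the 10 genes. It was at 10.11 and 9.68 in wt and at 10.48 and 10.75 in cKO. Both cKO arrays were above both wt arrays, by 0.37 in litter 1 and 1.07 in litter 2. The difference was 0.72 (standard error 0.19, 95% interval 0.19 to 1.24), or 1.65-fold, with an unadjusted p of 0.0186 and an adjusted p of 0.428 in limma, and an unadjusted p of 0.105 in the methods' one-way test. It remained between 0.50 and 0.94 with any 1 array left out.

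Most markers of cDC1, the DC subset that the sort on CD8 separates from Esam DC, moved in the same direction as Cd24a. By sign 10 were higher and 2 lower in cKO. All 12 of the list were tested, 9 passed the study's thresholds, all higher in cKO (0.9% of all tested probe sets did so), and 3 did not pass. The list was chosen with earlier results of these data known, so that its count is a description only. Irf8 differed by 1.13, Clec9a by 1.47, Cadm1 by 1.23 and Wdfy4, in the opposite direction, by -0.29. Batf3 also differed by -0.29 and was named after its values were seen. The median difference was 1.18, and the summed level of the list was 13.99 to 14.07 in wt and 14.67 to 14.75 in cKO. Of the 9 B cell markers with a probe set, 7 were tested, 4 higher and 3 lower by sign, and 1 passed. This was Fcer2a, below 6.5 on both wt arrays (6.19 and 6.44) and at 7.35 and 7.34 in cKO, so that it was tested only because of the group in which it was high. Blk ran the other way, at 7.40 and 8.22 in wt and below 6.5 in cKO (6.41 and 6.42), and was tested only because of its wt values. Cd22 differed by -0.34, and neither passed. Cd79a (0.43), Cd79b (0.50) and Ms4a1 (0.34) were above 6.5 on every array, higher in cKO by sign, and did not pass either. Ighm differed by -0.03. Cd79a, Cd79b, Ms4a1 and Ighm were named after their values were seen. The list had a summed level of 12.39 to 12.72 in wt and 12.52 to 12.67 in cKO. Their part in the Cd24a value was not tested.

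**Figure D2:**
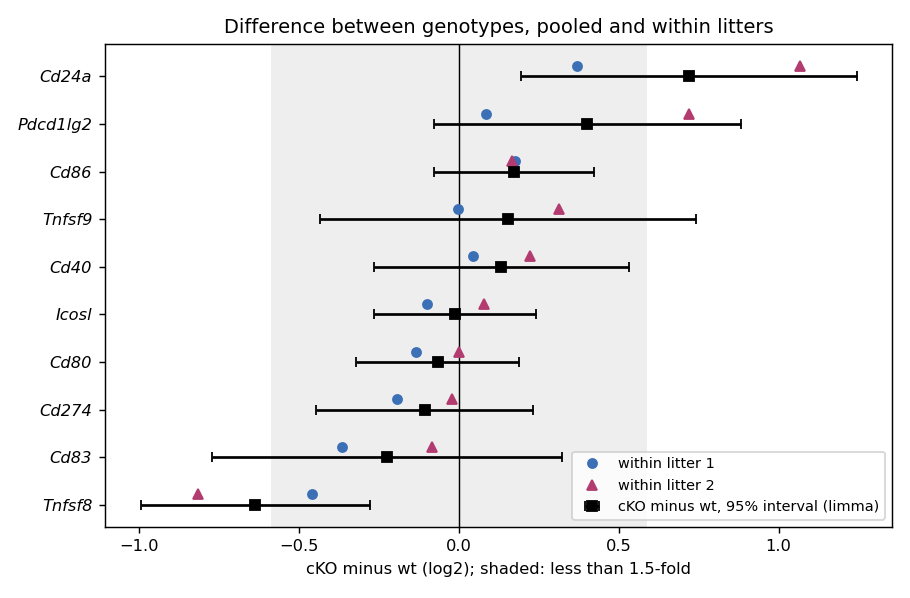
Difference between cKO and wt (x axis, log2) for each of the 10 genes (y axis). Squares with bars are the limma estimate and its 95% interval, circles the difference within litter 1 and triangles within litter 2, and the shaded band marks less than 1.5-fold. Only the intervals of Cd24a (0.19 to 1.24) and Tnfsf8 (-0.996 to -0.28) leave out 0, without adjustment for the number of probe sets tested.

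The litters were also set against each other within each genotype. The 10 genes differed by a median of 0.27 between wt 1 and wt 2 and of 0.14 between cKO 1 and cKO 2, without regard to sign, beside 0.163 and 0.0962 over all tested probe sets. Cd83 had the widest gap between the wt arrays, 0.49 higher in wt 1, and 11.3% of tested probe sets had a gap at least as wide. Cd24a was 0.43 higher in wt 1 (14.3% of tested probe sets at least as wide) and Cd40 0.32 higher (23.5%), whereas Tnfsf8 was lower in wt 1 by 0.29. Between the cKO arrays Tnfsf9 was lower in cKO 1 by 0.54, a gap reached by 4.19% of tested probe sets, and Pdcd1lg2 by 0.36 (9.94%).

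In 4 of the 10 genes (Cd40, Cd83, Cd274 and Cd86) litter 1 was above litter 2 in both genotypes, beside 31.9% of tested probe sets. In 2 (Cd80 and Tnfsf9) it was below in both, and the rest were mixed. Of the genes that rise when a DC matures, 11 of 14 tested genes of the list were higher in litter 1 in both genotypes. Among these were Fscn1, the actin-bundling protein of mature DC (0.83 in wt and 0.48 in cKO), and Ccr7, the receptor that guides mature DC to T cell zones (0.55 and 0.22), both named after their values were seen. The heat shock gene Hsph1 ran against this order, lower in litter 1 (wt 8.46, cKO 8.42) than in litter 2 (wt 10.17, cKO 10.31), also named after its values were seen. The split by litter coincides with the split of the sex-linked genes, and these cannot be told apart. The litter as a block takes this split out of the error. The standard error of Cd83 was then 0.12 in place of 0.20 and that of Tnfsf9 0.12 in place of 0.22. It rose for Cd24a (0.21 in place of 0.19), Pdcd1lg2 (0.19 in place of 0.18), Icosl and Cd80 and fell for the rest. No gene passed the adjusted threshold.

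**Figure D3:**
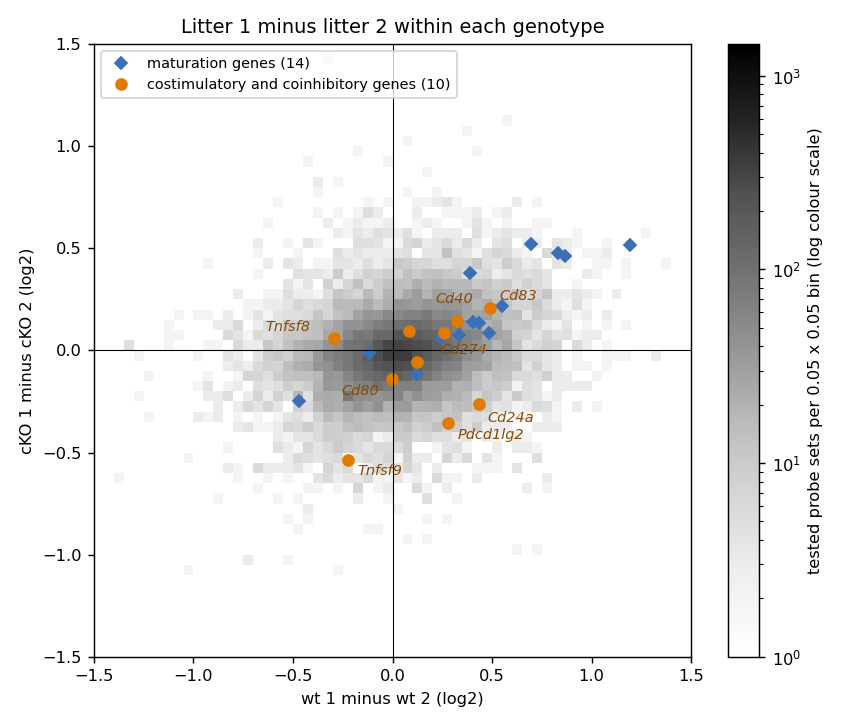
Litter 1 minus litter 2 (log2) among wt arrays (x axis) and among cKO arrays (y axis); grey bins count tested probe sets on a log colour scale, with those beyond 1.5 log2 units on either axis left out. Orange circles are the 10 genes and blue diamonds 14 maturation genes. Cd83 (0.49 and 0.21) and Cd40 (0.32 and 0.14) lie in the upper right quadrant with 11 of the maturation genes, and Cd24a (0.43 and -0.26) and Pdcd1lg2 (0.28 and -0.36) lie below 0 on the y axis.

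Other ligands that T cells meet on DC were read from lists. Of 16 further B7 family and immunoglobulin-type ligands, 11 were tested and 1 passed the study's thresholds. This was Pvr, which encodes the ligand of the receptors CD226 and TIGIT, at 7.86 and 7.56 in wt and at 8.82 and 8.85 in cKO. Both cKO arrays stood about 1 log2 unit above both wt arrays, and the 2.18-fold difference (1.13, standard error 0.13) did not pass the adjusted threshold (limma, adjusted p = 0.202). The B7 family gene Cd276 (B7-H3) differed by 0.71, and Timd4, a receptor for phosphatidylserine, by 0.35, whereas Cd48 differed by -0.19, and none of the 3 passed. The median over the 11 genes was 0.31, with 8 higher and 3 lower by sign.

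Of 14 further TNF family ligands, 6 were below 6.5 on all arrays, 2 had no probe set with a single symbol and 6 were tested. Fasl, the death ligand, was at 6.46 and 6.28 in wt, under the limit, and at 7.16 and 7.11 in cKO. It was therefore tested only because of its cKO values, and its wt level is known only as a bound. On the values as deposited it met the thresholds of the study and had an adjusted p of 0.215 in limma. Tnfsf14 (LIGHT) differed by 0.53 and Tnfsf10 (TRAIL) by -0.31, and neither passed. Of the 8 TNF ligands tested, Tnfsf8 and Tnfsf10 had both cKO arrays below both wt arrays, beside 23.7% of tested probe sets, and Fasl, Tnfsf14 and Tnfsf15 had both above, beside 16.4%. Tnfsf15 was named after its values were seen.

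**Figure D4:**
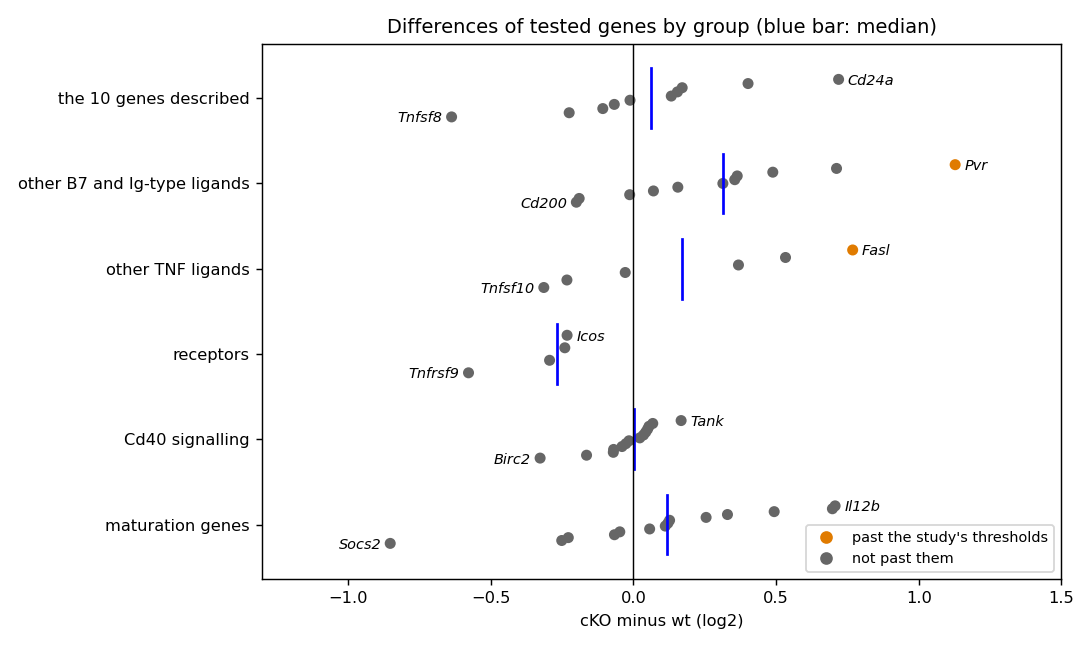
Difference between cKO and wt (x axis, log2) for each tested gene of 6 groups (y axis). Points are genes, orange where the study's thresholds were passed, blue bars are medians, and the lowest and highest gene of each group are named. Pvr (1.13) and Fasl are the only points past the thresholds, Fasl with both wt arrays below the limit of 6.5, and the medians run from -0.27 (receptors) to 0.31 (other B7 and immunoglobulin-type ligands).

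The receptors for these ligands are for the most part T cell proteins. Of 9, Cd28, Ctla4, Pdcd1, Cd40lg and Tnfrsf8, the receptor of Tnfsf8, lay below 6.5 on all arrays. The 4 that were tested were all lower in cKO by sign and none passed the study's thresholds: Siglecg, an inhibitory lectin that binds Cd24a, differed by -0.29, Tnfrsf14 by -0.24 and Tnfrsf9, the receptor of Tnfsf9, by -0.58. Icos was the last of these, at 10.59 and 10.06 in wt and at 10.30 and 9.89 in cKO, named after its values were seen.

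Downstream of Cd40 lie adaptors of the TRAF family, the kinase gene Map3k14 and the NF-kappaB subunits. Of 14 such genes tested, none passed the study's thresholds, with 7 higher and 7 lower by sign and a median of 0.00. The ubiquitin ligase gene Birc2 differed by -0.33, the adaptor genes Traf5 by -0.16 and Tank by 0.17. Of 14 maturation genes tested none passed either (9 higher and 5 lower by sign, median 0.12). Il1b, encoding interleukin 1 beta, differed by 0.49, Il15 by 0.33, the chemokine gene Ccl22 by 0.70 and Socs2, an inhibitor of cytokine signalling, by -0.85, the last with wt arrays at 10.61 and 9.41. Handling of the cells raises immediate early genes. None of the 16 such genes and heat shock genes tested passed the study's thresholds, and Nr4a3 and Atf3 differed by -0.39 each and Nr4a1 by 0.18. Over these 16 genes the median of wt 1 minus wt 2 was -0.33, with 5 higher in wt 1. The median of cKO 1 minus cKO 2 was 0.04.

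By the root mean square distance of centred values over the 4 arrays, the 3 genes nearest to Cd24a among the 9894 tested were Zfp931 (distance 0.05), Niban3 (0.06) and Ttc39a (0.07). Those nearest to Tnfsf8 were Tctex1d2 (0.04), Hsd17b4 (0.05) and Snx21 (0.06). The points of each profile share their arrays, so that this likeness is a description over 4 values.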

How the data were processed

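RNA of sorted Esam DC from 4 mice was hybridised to Affymetrix arrays. The deposited values are log2 signals that the authors computed in Partek by RMA with GC correction. The processing notes also name mm9, and versions are not given in the sources used here. The methods name an exon array, whereas the platform annotation supplied is of a gene-level array. Arrays were already normalized (medians 6.58 to 6.62). Of 35399 probe sets, 21789 carried 1 gene symbol, 1621 several and 11989 were not listed. Probe sets with a log2 value of at least 6.5 on at least 1 array were tested (18889, of which 10991 had 1 symbol). The test was limma 3.58.1 (R 4.3.3; lmFit and eBayes, two-sided, 2 residual degrees of freedom and a prior of 2.2) with Benjamini-Hochberg adjustment over all tested probe sets, and beside it the study's thresholds (a fold of 1.5 or more, and p up to 0.05 by the one-way test its methods name). The 95% intervals are limma's, unadjusted. The number of arrays limits the precision.

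The labels pair 1 wt and 1 cKO mouse in each litter, and deviations from the group means correlated within litters (r = 0.266 across probe sets, which are not independent). The litter block was an alternative, as were leaving out each array, other filters, a variance trend, quantile normalization and 1 probe set per gene. The genes described and all lists were chosen with earlier results of these data known. Named genes were the 10 genes, Runx3, genes of the Esam DC list, up to 3 of each other list by smallest unadjusted p plus 1 in the opposite direction where needed, and the 3 nearest patterns. The procedure was run on simulated data with independent arrays and planted differences larger than those of the 10 genes. That run did not cover shifts shared by a litter or differences as small as those reported here.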

Additional observations from a re-analysis of the deposited data

Results flagged for a closer look

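For 3 of the 10 genes the difference between cKO and wt had opposite signs in the 2 litters, as it did for 42.3% of tested probe sets. The difference in litter 2 less that in litter 1 was 0.31 for Tnfsf9 (0.31 and -0.00), 0.18 for Icosl (0.08 and -0.10) and 0.14 for Cd80 (0.00 and -0.14). With 1 pair of mice per litter this difference was not tested.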

How the results depend on the processing

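Of 111 values of the 10 genes under the alternatives, 104 kept their direction and stayed short of the adjusted threshold, 7 changed sign and 0 passed it; the lowest adjusted p was 0.131 (Tnfsf8, 1 probe set per gene). The block, the filters, the variance trend, 1 probe set per gene and the one-way test leave the differences as they are. Direction could therefore not change under these, only the p-values. The changes of sign came with 1 array left out, which breaks a litter pair. Within litter 1 and litter 2 Cd83 (-0.37 and -0.08), Cd274 (-0.19 and -0.02) and Cd40 (0.04 and 0.22) each kept their sign. Over the 4 arrays left out in turn, Cd83 ran from -0.47 to 0.020, Cd274 from -0.24 to 0.023 and Icosl from -0.072 to 0.048 (highest without wt replicate 1), Cd40 from -0.029 (without wt replicate 2) to 0.29, Cd80 from -0.14 to 0.0028 (without cKO replicate 1, where Icosl was also above 0) and Tnfsf9 from -0.11 (without cKO replicate 2) to 0.42. Cd24a, Pdcd1lg2, Cd86 and Tnfsf8 never changed sign. With 1 array left out they could not, because their wt and cKO arrays did not overlap. With 1 array left out the lone sample of a group is assumed to vary like the other group, and p-values then rest on the pair that remains. The count past the adjusted threshold over all probe sets was 0 by limma (1771 at an unadjusted p under 0.05) and 0 by the methods' one-way test (1556), also with the litter as a replicate block. It was 2 with a variance trend, 1 after quantile normalization and 42 with 1 probe set per gene, none of them among the 10 genes. The count past the study's thresholds was 267 and fell to 135 with the replicate block, which leaves 1 residual degree of freedom less, and ran from 113 to 281 without 1 array (113 without cKO replicate 2, 114 without cKO replicate 1, 171 without wt replicate 2). The median difference of the 10 genes (0.06) moved under every alternative by less than its spread between litters (SD 0.12), but its sign turned without wt replicate 2 (-0.047) and without cKO replicate 2 (-0.052). The block changed no call of the 10 genes. For Cd83, Tnfsf9, Pdcd1lg2, Tnfsf8 and Cd24a the 95% intervals from 2 arrays per group reached beyond 1.5-fold.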
